A study of Mus musculus with 26 samples.

Results

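The 48 genes described here are imprinted genes that lie outside the Dlk1-Dio3 domain, taken by gene symbol from a list of known mouse imprinted genes. They are 48 of the 25239 genes in the count table, and they fall into 21 clusters or single loci. By the allele known to be expressed in mouse tissues, 25 are paternally expressed and 9 maternally expressed. A further 11 are maternally expressed in some tissues only, such as placenta or brain, 1 (Ddc) is paternally expressed in some tissues only, and in 2 (Gnas and Inpp5f) the allele depends on the transcript.

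Imprinted genes are expressed mainly or only from the copy inherited from 1 parent. At many of them, methylation of imprinting control regions, set in egg or sperm, marks the copies. After fertilisation this methylation is kept by the zinc finger proteins ZFP57 and ZFP445, their partner TRIM28 and the methyltransferase DNMT1. Many paternally expressed genes favour growth of the fetus and placenta, many maternally expressed genes restrain it, and imprints are known to drift in cultured embryonic stem cells. The RNA totals described here do not tell the alleles apart.

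HMCES is a protein that binds abasic sites in DNA, and the series set knockout cells (HMCES-KO) against wild type (WT) in mouse embryonic stem cells labelled C57BL/6, grown in serum on gelatin. A count table held untreated cells of the knockout lines KO8 and KO7 and of WT, with 2 libraries each, and a TPM table (a level per gene length, scaled to 1000000 per library) held 2 untreated HMCES-KO and 2 untreated WT libraries. Each of 4 further TPM tables held 1 library of the line HMCES-KO2, 1 of the line HMCES-KO1 and 2 of WT after 2 h with 10 ng/ml BMP4, with 50 nM LDN193189 (an inhibitor of BMP receptors), with 50 ng/ml activin A (a ligand of the Nodal receptors) or with 10 µM SB431542 (an inhibitor of those receptors). The labels used here do not say which of KO7 and KO8 is HMCES-KO1, so each table keeps its own names. Which line or lines gave the untreated TPM libraries, named K81 and K82 (HMCES-KO) and CCE1 and CCE2 (WT), is also not given. The labels do not say how the knockout was made or whether a line is 1 clone. They tie no library of a group to a culture of its own. The p-values therefore measure the spread between libraries, which may be technical.

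Hmces RNA was lower in every knockout library than in every WT library of the same table set, at 80.9 to 86.1 CPM (counts scaled to 1000000 per library) in KO8, 122 to 124 in KO7 and 308 to 363 in WT. In treated cells it lay at 143 to 184 TPM in KO2, 325 to 400 in KO1 and 507 to 663 in WT. Total counts per library ran from 9571113 to 13512922 in the count table, and the reads recovered from TPM steps from 8524110 to 10037099 in the untreated and from 4120162 to 5544415 in the treated tables. All 8 pluripotency markers checked were detected in every group, with Klf2 higher (1.11 in KO8 and 1.25 in KO7, log2) and Klf4 lower (-0.76 and -0.35). Summed fibroblast markers (6 genes) were at 234 to 235 CPM in KO8, 394 to 400 in KO7 and 240 to 271 in WT, with Col3a1 at 0 in WT, and of 4 tested, Pdgfrb, Thy1 and Col1a1 fell in both lines (-1.82 to -1.27) and Vim rose in KO7 (0.97 ± 0.07). Summed endoderm markers (16 genes) were lower in the knockouts, at 383 to 395 CPM in KO8, 418 to 427 in KO7 and 811 to 853 in WT, with Ttr at 0 in both lines and Afp at 0 in KO7 and WT, and 13 of 13 tested fell in KO8 and 12 of 13 in KO7. Summed neuroectoderm markers (7 genes, none at 0 in any group) were higher, at 234 to 252 CPM in KO8, 305 to 314 in KO7 and 159 to 175 in WT. In bulk RNA, fewer cells of a type and less RNA per cell cannot be told apart. The part of these marker shifts in the imprinted genes' results was not tested.

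Promoter windows from RefSeq (build GRCm38.p6, 250 bases before to 50 after each start) matched 39 of the 48 genes, with 60 windows. No window was matched for H19, Peg10, Sgce, Cdkn1c, Nap1l4, Impact, Klf14, Peg13 and Trappc9. The member windows held a median of 16 CpG, against 7 over all 32851 windows of the table. TGCCGC, the hexamer that ZFP57 binds when methylated, was searched on both strands. It stood in 1 or more windows of 14 of the 39 genes (35.9%), and in those of 13.1% of the 27025 genes of the table. A match here is a description of letters and not a binding site.

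The 250 bases before the start are shown for Mest, Mcts2 and Phlda2 and for Nap1l5, which changed in single lines. The first 3 genes were called in the same direction in all 5 comparisons of KO8, KO7, untreated HMCES-KO, KO2 and KO1 with WT. Each is written 5′ to 3′ on the gene's strand, with the hexamer or its reverse complement in capitals. Mest (chr6:30737803-30738052, plus strand, before one of its internal starts) holds 14 CpG and 2 hexamers, and Mcts2 (chr2:152686898-152687147, plus strand), which lies inside an intron of H13, holds 20 CpG and 1 hexamer. Phlda2 (chr7:143502525-143502774, minus strand) holds 21 CpG and no hexamer, and Nap1l5 (chr6:58907127-58907376, minus strand) holds 10 CpG and 1 hexamer.
Mest: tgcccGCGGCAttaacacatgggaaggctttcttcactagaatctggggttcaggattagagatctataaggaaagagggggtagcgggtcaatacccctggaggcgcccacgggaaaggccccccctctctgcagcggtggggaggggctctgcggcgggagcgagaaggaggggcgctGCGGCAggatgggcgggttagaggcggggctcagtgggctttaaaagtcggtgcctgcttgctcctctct
Mcts2: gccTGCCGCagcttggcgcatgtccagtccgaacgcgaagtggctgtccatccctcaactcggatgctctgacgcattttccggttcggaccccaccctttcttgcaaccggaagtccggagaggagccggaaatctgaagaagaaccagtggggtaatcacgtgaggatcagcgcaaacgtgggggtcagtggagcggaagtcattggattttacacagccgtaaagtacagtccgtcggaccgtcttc
Phlda2: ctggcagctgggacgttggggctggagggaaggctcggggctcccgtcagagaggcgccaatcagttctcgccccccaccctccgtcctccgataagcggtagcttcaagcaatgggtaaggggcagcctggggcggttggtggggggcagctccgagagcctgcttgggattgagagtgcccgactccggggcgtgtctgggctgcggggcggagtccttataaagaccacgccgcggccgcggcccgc
Nap1l5: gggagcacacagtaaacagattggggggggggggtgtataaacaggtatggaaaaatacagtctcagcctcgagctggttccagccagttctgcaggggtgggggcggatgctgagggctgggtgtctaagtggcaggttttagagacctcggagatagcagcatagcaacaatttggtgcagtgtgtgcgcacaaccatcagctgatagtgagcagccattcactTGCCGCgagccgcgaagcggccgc
At least as many CpG as in Phlda2 were found in 16.3% of all windows of the table, cut to the same 250 bases, at least as many as in Mcts2 in 17.9%, as in Mest in 29.4% and as in Nap1l5 in 37.8%. For Mest a start with the most CpG in its window was chosen, so its share follows in part from that choice. Another Mest window held 8 CpG over its full length and no hexamer.

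Levels per gene length were computed as TPM from the counts. In untreated WT cells, 30 of the 48 genes averaged at least 10 TPM, 10 lay between 1 and 10 TPM and 8 were below 1 TPM. Peg10, a retrotransposon-derived gene needed for placenta formation in mice, had the highest mean, with 357 and 347 TPM in the 2 WT libraries. Cd81, a tetraspanin of the cell surface, had 365 and 338 TPM, so that these neighbours in the order overlapped. The noncoding RNA H19 had 18.3 and 15.2 TPM and the growth factor gene Igf2 5.23 and 6.03 TPM, which placed H19 above Igf2 in both WT libraries. Snrpn and Snurf, whose exons overlap, Airn, Kcnq1ot1, Klf14 and Rasgrf1 were near or at 0 TPM.

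**Figure D1:**
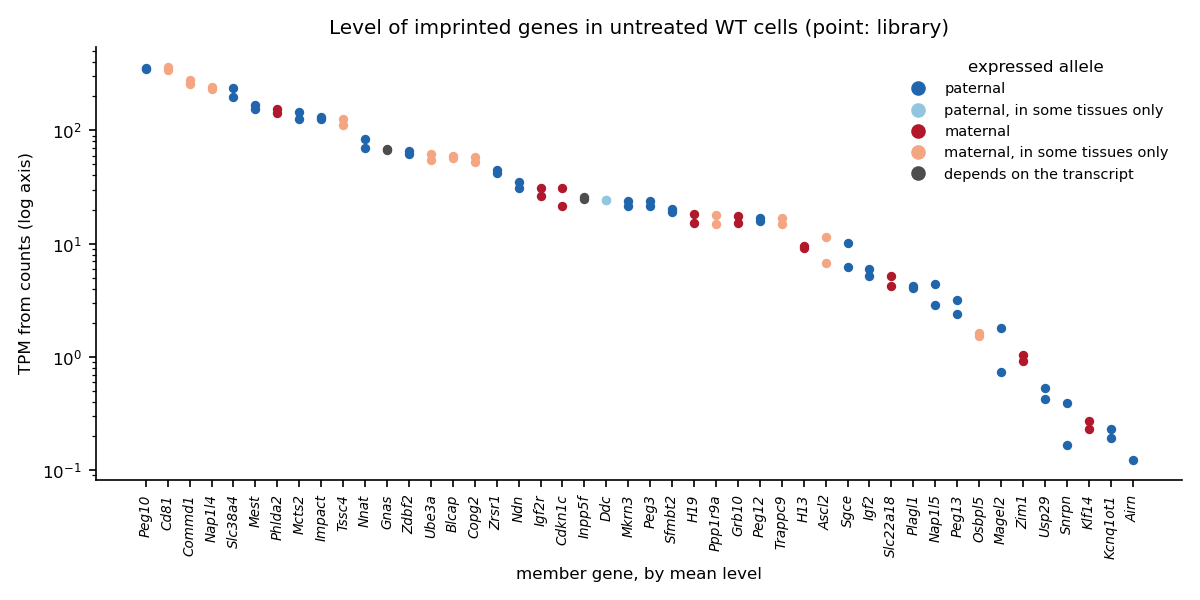
Level of each imprinted gene in the 2 untreated WT libraries of the count table, in TPM computed from the counts (log axis); each point is a library, and colour gives the expressed allele. Peg10 and Cd81 lead at a mean of 352 and 351 TPM, and libraries with no read (1 for Airn, both for Snurf and Rasgrf1) are not drawn.

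In untreated KO8 cells, 14 imprinted genes rose and 12 fell among the 43 that passed the filter on low counts. In untreated KO7 cells, 11 rose and 13 fell. The threshold was an adjusted p under 0.05 (edgeR quasi-likelihood test, Benjamini-Hochberg over 13475 genes). At that threshold 38.9% of all genes tested were called in KO8 and 38.2% in KO7. The imprinted genes called made up 60.5% of those tested in KO8 and 55.8% in KO7, a share above that of all genes that was not tested. In WT cells the median level was 21.1 TPM for the listed imprinted genes and 10.8 TPM for genes with a count in any library. The part of this higher level in the share called was not tested. The list was also chosen with earlier results of these data known. The imprinted genes tested had a median log2 fold change of -0.04 in KO8 and -0.02 in KO7, near the -0.01 and 0.00 of all genes. The KO7 count went to 14 without KO7 replicate 2. Airn, Snrpn, Snurf, Klf14 and Rasgrf1 did not pass the filter.

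Both lines share the WT libraries, so their calls are set side by side and not compared as independent. The 9 genes higher in both were Peg3, Impact, Ndn, Magel2, Ube3a, Mest, Mcts2, H13 and Peg13. Those lower in both were the 7 genes H19, Peg10, Ppp1r9a, Phlda2, Slc22a18, Igf2r and Grb10. A further 9 genes were called in KO8 alone and 7 in KO7 alone, and 10 were called in neither. Sfmbt2 was called in opposite directions. Set directly against each other, KO8 and KO7 differed at 22 of the 43 genes (10 higher and 12 lower in KO8), where 28.2% of all genes tested differed (13.9% higher and 14.3% lower). That count went to 13 without KO8 replicate 2.

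**Figure D2:**
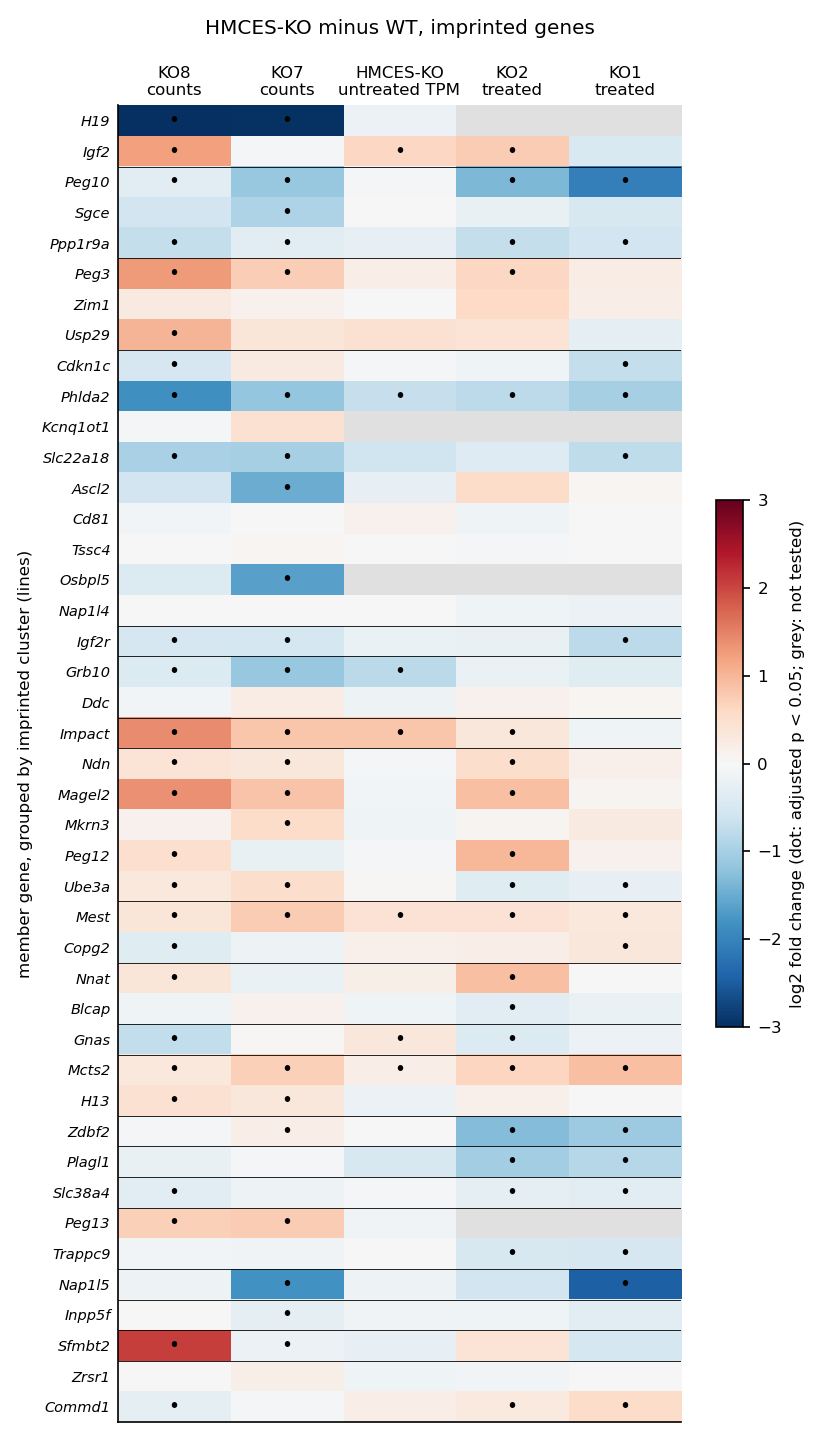
Log2 fold change of each tested imprinted gene in KO8 and KO7 (counts), in untreated HMCES-KO (TPM) and in treated KO2 and KO1 cells, each against the WT libraries of its own tables; dots mark an adjusted p under 0.05 and grey marks genes not tested. Mest and Mcts2 are called higher and Phlda2 lower in all 5 columns. H19 is called lower in KO8 and KO7, not called in untreated HMCES-KO and not tested in treated cells.

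H19 (chr7:142575530-142578146, minus strand, mm10 as in the count table), the maternally expressed noncoding RNA that shares its enhancers and control region with Igf2, showed the largest fall of the list in untreated cells. It had 1.36 and 1.73 CPM in KO8, 1.26 and 2.31 CPM in KO7, and 15.3 and 12.9 CPM in WT. No knockout library came near a WT library. The log2 fold change was -3.13 ± 0.27 (SE) in KO8 (adjusted p = 2.1e-08) and -2.96 ± 0.25 in KO7 (adjusted p = 2.7e-08). The genes within 2 Mb of H19 had a median change of -0.04 in KO8 and -0.11 in KO7 (57 genes). The endoderm marker sums, which fell in the same libraries, were 383 to 395 CPM in KO8, 418 to 427 in KO7 and 811 to 853 in WT, and their part in the H19 value was not tested.

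In the untreated TPM table H19 was near the floor in both groups. It had 1.38 and 1.32 TPM in HMCES-KO and 1.45 and 1.89 TPM in WT, on 11 and 9 recovered reads and on 11 and 14. The log2 difference was -0.18 ± 0.23 (adjusted p = 0.64 by limma), so no change was detected there at that low level. WT cells of that table held far less H19 than the WT cells of the count table, whose counts gave 18.3 and 15.2 TPM. The tables were made separately, and cells and table cannot be told apart. H19 was in none of the treated tables.

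Igf2 (chr7:142650768-142666816, minus strand), the paternally expressed ligand of the same cluster, was higher in KO8 but not in KO7. Its libraries held 21.4 and 20.8 CPM in KO8, 8.95 and 8.45 CPM in KO7, and 8.66 and 10.1 CPM in WT. Both KO8 libraries thus stood above all others, and the KO7 and WT libraries overlapped. The log2 fold change was 1.22 ± 0.15 in KO8 (adjusted p = 1.8e-06) and -0.03 ± 0.16 in KO7 (adjusted p = 0.91), and KO8 exceeded KO7 by 1.25 ± 0.15 (adjusted p = 1.4e-06). For H19 no difference between the lines was detected (KO8 minus KO7 -0.16 ± 0.38, adjusted p = 0.79), so H19 fell in KO7 without a detected change of Igf2.

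In the other tables Igf2 was higher in untreated HMCES-KO cells, whose line is not given, and differed by line in treated cells. Untreated HMCES-KO cells had 11.6 and 13.2 TPM, against 7.47 and 8.11 TPM in WT (log2 difference 0.61 ± 0.13, adjusted p = 0.033 by limma, 0.062 without a trended prior). That call held in 5 of 10 alternatives. KO2 held 4.27 to 5.07 TPM over the 4 treated tables, KO1 0.54 to 2.48 TPM and WT 1.33 to 4.56 TPM. KO2 exceeded KO1 in every table and overlapped WT at 1 library, that of WT replicate 1 under LDN193189. Against WT this was 0.76 ± 0.24 in KO2 (adjusted p = 0.025) and -0.45 ± 0.24 in KO1 (adjusted p = 0.17). Leaving out any 1 of the 4 KO2 libraries ended the KO2 call, with adjusted p from 0.05 to 0.081. KO2 exceeded KO1 by 1.21 ± 0.28 (adjusted p = 0.014), and without the KO1 library under LDN193189 by 0.98 (adjusted p = 0.065).

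Of the maternally expressed genes that restrain growth, Phlda2 fell in every knockout comparison. Phlda2 (chr7:143501548-143502524, minus strand), a pleckstrin homology domain protein of the Kcnq1 cluster that limits placental growth in mice, had 9.72 and 11.8 CPM in KO8, 15.1 and 19.5 CPM in KO7, and 38.2 and 42.3 CPM in WT. The 3 groups did not overlap. The log2 fold change was -1.84 ± 0.14 in KO8 (adjusted p = 4.8e-09) and -1.16 ± 0.13 in KO7 (adjusted p = 6.4e-07).

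In the untreated TPM table Phlda2 had 69.9 and 86.8 TPM in HMCES-KO, against 121 and 134 TPM in WT (-0.70 ± 0.11, adjusted p = 0.013), and without WT replicate 2 the adjusted p was 0.056. Under treatment it had 199 to 255 TPM in KO2, 177 to 233 TPM in KO1 and 338 to 512 TPM in WT. No treated knockout library reached the lowest WT library. The change was -0.79 ± 0.08 in KO2 (adjusted p = 2.8e-06) and -0.99 ± 0.08 in KO1 (adjusted p = 1.6e-07).

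Other genes of the Kcnq1 cluster behaved less uniformly. Slc22a18, a transporter that lies beside Phlda2 on chromosome 7, had 1.15 and 1.54 CPM in KO8, 1.33 and 1.31 CPM in KO7, and 3.03 and 2.5 CPM in WT. It fell by 0.98 ± 0.36 in KO8 and by 1.00 ± 0.35 in KO7 on the log2 scale (adjusted p = 0.037 and 0.031), on few reads, and DESeq2 gave adjusted p = 0.2 and 0.19. In treated KO1 cells it was called at -0.76 ± 0.28 (adjusted p = 0.049), a call that held in 5 of 21 alternatives. Cdkn1c, which encodes the cell cycle inhibitor p57, had 11.7 and 13.7 CPM in KO8, 20.8 and 21.7 CPM in KO7, and 15.2 and 22.4 CPM in WT. It was called lower in KO8 (-0.50 ± 0.17, adjusted p = 0.022), but without WT replicate 2 the value was -0.19 with an adjusted p of 0.33.

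Ascl2, a transcription factor of trophoblast cells, had 3.13 and 3.95 CPM in KO8, 2.22 and 1.41 CPM in KO7, and 6.81 and 4 CPM in WT. It fell in KO7 (-1.48 ± 0.32, adjusted p = 0.001) and was not called in KO8 (-0.57 ± 0.29, adjusted p = 0.13). Osbpl5, of the oxysterol-binding protein family, had 1.78 and 1.64 CPM in KO8, 1.04 and 0.302 CPM in KO7, and 2.44 and 2.3 CPM in WT. Its fall in KO7 (-1.64 ± 0.45, adjusted p = 0.0065) rested on KO7 replicate 2, without which the value was -1.11 with an adjusted p of 0.1. Cd81, Tssc4 and Nap1l4 in the same cluster and the noncoding RNA Kcnq1ot1, known to silence the cluster on the paternal copy, were called in neither line.

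Grb10 and Igf2r restrain insulin and IGF signalling at other loci. Grb10, an adaptor that dampens the insulin and IGF receptors, had 24.3 and 21.7 CPM in KO8, 13 and 14.5 CPM in KO7, and 33.4 and 29.6 CPM in WT. It was lowest in KO7, and no group overlapped another. The change was -0.41 ± 0.11 in KO8 (adjusted p = 0.0082, 0.12 without KO8 replicate 2 and 0.062 with DESeq2) and -1.14 ± 0.12 in KO7 (adjusted p = 4.3e-07). Untreated HMCES-KO cells of the TPM table had 16.6 and 15.7 TPM, against 28.3 and 30.3 TPM in WT (-0.82 ± 0.09, adjusted p = 0.0058). Treated cells held 0.558 to 1.4 TPM in KO2, 0.338 to 1.24 TPM in KO1 and 1.16 to 1.96 TPM in WT, and neither line was called.

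Igf2r, the receptor that clears IGF2 from the cell surface, had 69.8 and 59.5 CPM in KO8, 61.6 and 65.6 CPM in KO7, and 102 and 87.9 CPM in WT. It fell by 0.51 ± 0.09 in KO8 (adjusted p = 0.0001) and by 0.52 ± 0.08 in KO7 (adjusted p = 7.6e-05) on the log2 scale. In treated cells it fell in KO1 (-0.78 ± 0.13, adjusted p = 0.00023) and was not called in KO2 (-0.22 ± 0.13, adjusted p = 0.21). Among 11 tested genes of a list of 15 other insulin and IGF signalling genes, 5 were higher and 6 lower in KO8, and 1 was higher and 5 lower in KO7. Of all genes tested, 38.9% were called in KO8 and 38.2% in KO7. Igfbp4 and Igfbp2, which bind IGFs outside the cell, and the receptor genes Insr and Igf1r were lower in both lines, with Igfbp2 at -1.21 ± 0.07 in KO8 and -0.33 ± 0.07 in KO7.

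Peg10 (chr6:4747306-4760516, plus strand) fell in 4 of the 5 knockout comparisons. In untreated cells it had 676 and 652 CPM in KO8, 381 and 369 CPM in KO7, and 870 and 856 CPM in WT. The change was -0.33 ± 0.05 in KO8 (adjusted p = 3.5e-05) and -1.13 ± 0.05 in KO7 (adjusted p = 3.5e-12), and KO8 exceeded KO7 by 0.80 ± 0.05 (adjusted p = 3e-10). The untreated TPM table showed 386 and 380 TPM in HMCES-KO and 407 and 398 TPM in WT (-0.07 ± 0.03, adjusted p = 0.21).

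In treated cells the Peg10 difference was larger. KO2 held 277 to 480 TPM, KO1 176 to 297 TPM and WT 785 to 1165 TPM, with no overlap of either line with WT. The fall was -1.34 ± 0.07 in KO2 (adjusted p = 4.6e-09) and -2.06 ± 0.07 in KO1 (adjusted p = 1.4e-11). Its neighbours in the cluster are Sgce (epsilon-sarcoglycan) and Ppp1r9a (neurabin 1). Ppp1r9a fell by 0.72 ± 0.10 in KO8, 0.32 ± 0.09 in KO7, 0.72 ± 0.15 in KO2 and 0.58 ± 0.15 in KO1 on the log2 scale, in KO8 by more than Peg10. Its KO7 call held in 6 of 10 alternatives, with -0.20 (adjusted p = 0.1) without WT replicate 1 and an adjusted p of 0.053 with DESeq2. Sgce was called only in KO7 (-0.93 ± 0.28, adjusted p = 0.011, and 0.22 without WT replicate 1).

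Peg10, Sgce, Ppp1r9a, Mest, Copg2 and Nap1l5 lie on chromosome 6, whose genes as a whole were lower in several lines. The median log2 fold change of the 632 chromosome 6 genes tested in counts was -0.24 in KO8 and -0.33 in KO7, while the medians of the other chromosomes that carry tested imprinted genes ran from -0.06 to 0.08 in those lines. In treated cells the chromosome 6 median was -0.07 in KO2 and -0.26 in KO1, and 0.05 in the untreated TPM table. The 9 genes within 2 Mb of Peg10 had a median of -0.24 in KO8 and 0.12 in KO7. Ppp1r9a lay near the chromosome 6 median in KO7 (-0.32) and below it in KO8 (-0.72). The part of this shift in the imprinted genes' values was not tested.

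**Figure D3:**
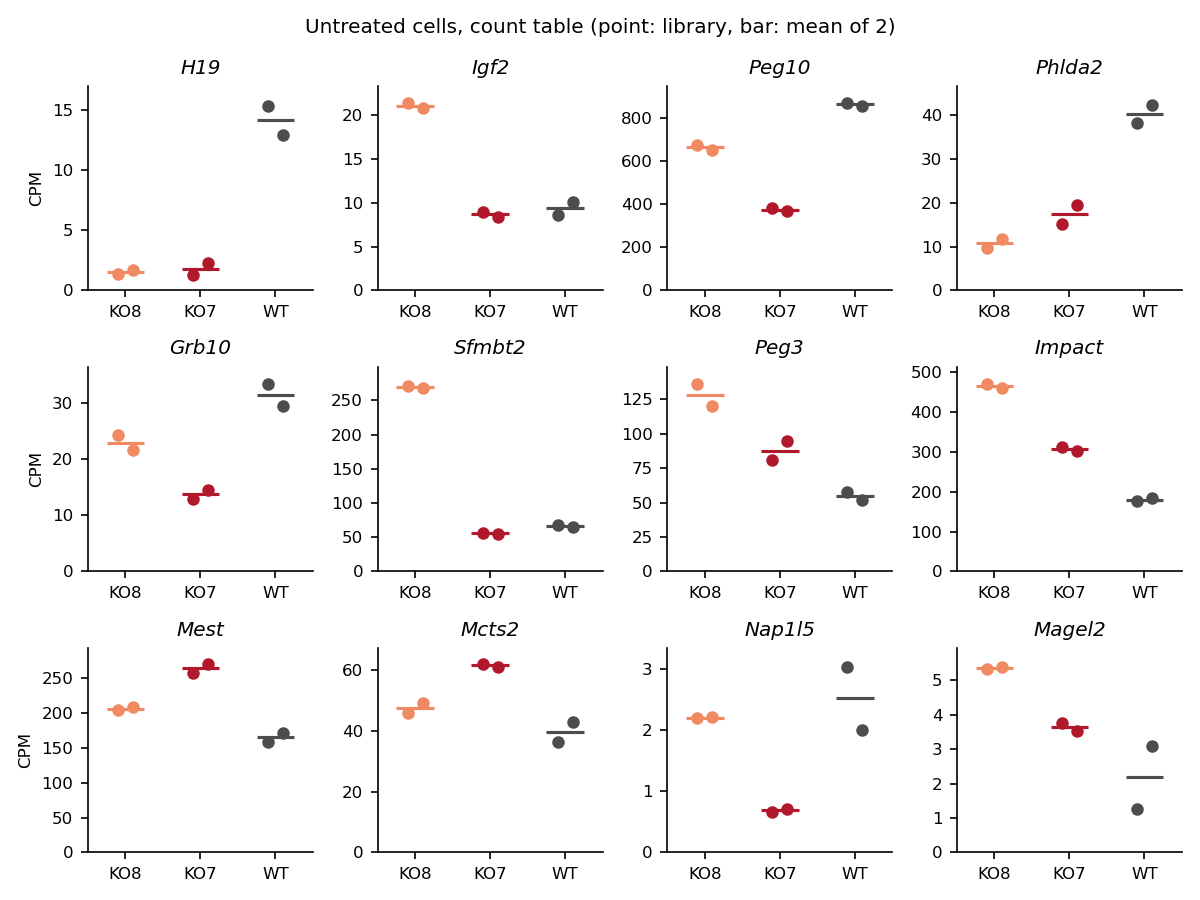
CPM of 12 imprinted genes in the untreated libraries of KO8, KO7 and WT, from the count table; points are libraries and bars the mean of 2. The H19 libraries of both lines lie below 2.4 CPM and those of WT above 12 CPM, and Sfmbt2 stands apart in KO8 alone.

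Mest and Mcts2 are paternally expressed genes that were called higher in KO8, KO7, untreated HMCES-KO, KO2 and KO1. Mest, of the alpha/beta hydrolase family, falls outside the rule for genes given by library and was added after its values were seen. It had 204 and 208 CPM in KO8, 258 and 271 CPM in KO7, and 158 and 172 CPM in WT, so every knockout library exceeded both WT libraries. The change was 0.37 ± 0.06 in KO8 (adjusted p = 9.3e-05) and 0.75 ± 0.06 in KO7 (adjusted p = 1.4e-08). This rise stood against the lower median of chromosome 6, while the 29 genes within 2 Mb of Mest had a median of -0.25 in KO8 and -0.04 in KO7.

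Untreated HMCES-KO cells of the TPM table had 233 and 213 TPM of Mest, against 169 and 158 TPM in WT (0.44 ± 0.06, adjusted p = 0.0094, and 0.074 without a trended prior). Treated cells had 92.1 to 101 TPM in KO2, 83.2 to 98.9 TPM in KO1 and 57.2 to 83.9 TPM in WT. Both lines lay above WT within each table. The change was 0.44 ± 0.09 in KO2 (adjusted p = 0.0018) and 0.31 ± 0.09 in KO1 (adjusted p = 0.015), where leaving out the KO1 library under SB431542 gave 0.24 with an adjusted p of 0.092 and leaving out that under activin A an adjusted p of 0.064. Mest shares 32.9% of its exon bases with the opposite-strand gene Copg2, and no strand setting of the counting is given, so reads there cannot be told apart. Copg2, a coat protein of transport vesicles, moved the other way in KO8 (-0.37 ± 0.07, adjusted p = 0.00061) and rose with Mest in treated KO1 (0.34 ± 0.09, adjusted p = 0.009). In the untreated TPM table it was not called by limma (0.16 ± 0.08, adjusted p = 0.2) and was called higher by edgeR on recovered reads (0.22, adjusted p = 0.032).

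Mcts2 is a retrogene that arose from Mcts1 and lies in an intron of H13, and reads of so close a copy can be divided between the genes. It had 45.9 and 49.4 CPM in KO8, 62.3 and 61.3 CPM in KO7, and 36.3 and 43 CPM in WT. The change was 0.32 ± 0.10 in KO8 (adjusted p = 0.012) and 0.72 ± 0.09 in KO7 (adjusted p = 5e-06). The KO8 call was lost without WT replicate 1 (0.19, adjusted p = 0.14) and without KO8 replicate 2 (0.27, adjusted p = 0.13).

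In the untreated TPM table Mcts2 had 290 and 299 TPM in HMCES-KO, against 262 and 255 TPM in WT. The difference was small, at 0.19 ± 0.04 (adjusted p = 0.03 by limma, and 0.15 without a trended prior), and the call held in 5 of 10 alternatives. Treated KO2 cells had 796 to 1244 TPM, KO1 1144 to 1248 TPM and WT 565 to 754 TPM. All treated knockout libraries lay above all WT libraries. The change was 0.65 ± 0.10 in KO2 (adjusted p = 0.00023) and 0.90 ± 0.10 in KO1 (adjusted p = 7.3e-06). H13, the host gene that encodes a signal peptide peptidase, rose in untreated KO8 (0.46 ± 0.10) and KO7 (0.33 ± 0.09) and was not called in the other tables.

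Among the paternally expressed genes of chromosomes 7 and 18, Impact and Peg3 rose in both untreated lines, each more in KO8. Impact, a regulator of translation, had 470 and 461 CPM in KO8, 312 and 303 CPM in KO7, and 176 and 185 CPM in WT. The change was 1.42 ± 0.06 in KO8 (adjusted p = 2.3e-13) and 0.84 ± 0.06 in KO7 (adjusted p = 9.2e-10). Untreated HMCES-KO cells of the TPM table had 343 TPM in both libraries, against 192 and 190 TPM in WT (0.84 ± 0.04, adjusted p = 0.00045), and this call held in every alternative tried.

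Under treatment KO2 had 29.7 to 44.6 TPM, KO1 24.8 to 32.4 TPM and WT 28.6 to 32.8 TPM of Impact, and KO2 lay below WT under BMP4 and above it in the other tables. The change was 0.33 ± 0.11 in KO2 (adjusted p = 0.025, lost without the KO2 library of LDN193189, SB431542 or activin A) and -0.14 ± 0.11 in KO1 (adjusted p = 0.32).

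Peg3, a zinc finger protein known for roles in growth and maternal behaviour in mice, had 136 and 120 CPM in KO8, 80.7 and 94.9 CPM in KO7, and 57.7 and 52.1 CPM in WT. Its change was 1.27 ± 0.09 in KO8 (adjusted p = 1e-09) and 0.74 ± 0.09 in KO7 (adjusted p = 1.9e-06). In treated cells Peg3 rose in KO2 (0.62 ± 0.11, adjusted p = 0.00069) and was not called in KO1 (0.22 ± 0.11, adjusted p = 0.15). The genes within 2 Mb of Peg3 had a median change of 0.24 in KO8, -0.02 in KO7 and 0.25 in both treated lines. Usp29, a deubiquitinase gene that starts beside Peg3 on the opposite strand, had 5.43 and 4.72 CPM in KO8, 3.18 and 3.22 CPM in KO7, and 2.86 and 2.3 CPM in WT (1.01 ± 0.27 in KO8, adjusted p = 0.0057, and 0.061 without KO8 replicate 1). The maternally expressed zinc finger gene Zim1 of the same cluster was called in none of the 5 knockout comparisons.

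In the Snrpn-Ube3a cluster, the region of Prader-Willi and Angelman syndromes in humans, 4 of 5 tested genes rose in KO8 and 4 of 5 in KO7, where 19.3% and 19% of all genes did. In the untreated TPM table none of the 5 was called, with values from -0.13 to 0.03, and 5.8% of all genes were called higher there. Magel2, of the MAGE family, had 5.33 and 5.39 CPM in KO8, 3.77 and 3.52 CPM in KO7, and 1.26 and 3.10 CPM in WT. The WT libraries lay far apart, and both lines exceeded the higher one. The change was 1.38 ± 0.32 in KO8 (adjusted p = 0.0021), and in KO7 0.85 ± 0.34 (adjusted p = 0.05), a call that held in 4 of 10 alternatives. Without WT replicate 1 the values were 0.83 (adjusted p = 0.039) in KO8 and 0.30 (adjusted p = 0.51) in KO7, and without WT replicate 2 they were 2.14 and 1.61. Ndn (necdin, also of the MAGE family) and the ubiquitin ligase gene Ube3a rose in both lines by 0.32 to 0.52, while Peg12 was called in KO8 alone (0.50 ± 0.13) and Mkrn3, a makorin zinc finger gene, in KO7 alone (0.54 ± 0.12). The KO7 call of Ndn was lost with DESeq2 (adjusted p = 0.087). Neuroectoderm marker sums were higher in the same libraries, and their part was not tested.

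Peg12, a gene of the Frat family, had 22.4 and 20.9 CPM in KO8, 12.8 and 13.1 CPM in KO7, and 16.2 and 15.3 CPM in WT. Under treatment it had 32.2 to 46.8 TPM in KO2, 14.7 to 27.1 TPM in KO1 and 9.64 to 25.3 TPM in WT. Each KO2 library stood above every KO1 and WT library. The change was 1.00 ± 0.17 in KO2 (adjusted p = 0.00057) and 0.13 ± 0.17 in KO1 (adjusted p = 0.61), with KO2 above KO1 by 0.87 ± 0.20 (adjusted p = 0.016, a call that held in 17 of 21 alternatives). Ube3a was lower in both treated lines (-0.36 ± 0.07 in KO2 and -0.25 ± 0.07 in KO1), against rises in the untreated lines of the count table and no detected change in the untreated TPM table (0.03 ± 0.05, adjusted p = 0.73). In KO1 the adjusted p was 0.056 after median-of-ratios scaling.

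Sfmbt2 (chr2:10370451-10595253, plus strand), a polycomb-associated gene known to be paternally expressed in extraembryonic tissue, gave the largest rise of the list. In the counts by allele it stands with the paternally expressed genes. It had 271 and 268 CPM in KO8, 56.2 and 55.3 CPM in KO7, and 67.8 and 64.2 CPM in WT. Only the KO8 libraries were high, by 2.08 ± 0.06 (adjusted p = 6.2e-15), and KO8 exceeded KO7 by 2.25 ± 0.06 (adjusted p = 1.6e-15). The fall in KO7 was small (-0.18 ± 0.07, adjusted p = 0.05 after rounding) and held in 1 of 10 alternatives. The 9 genes within 2 Mb had a median of 0.11 in KO8. Summed trophectoderm markers (9 genes) were also higher in KO8, at 165 to 169 CPM, against 70.2 to 75.4 CPM in KO7 and 82.8 to 84 CPM in WT, with Elf5 at 0 in KO7 and WT, and their part in the Sfmbt2 value was not tested.

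The other tables did not show that rise. Sfmbt2 had 23.8 and 25.6 TPM in untreated HMCES-KO, against 30.5 and 28.4 TPM in WT (-0.24 ± 0.09, adjusted p = 0.11). Treated cells had 3.29 to 6.09 TPM in KO2, 0.847 to 3.92 TPM in KO1 and 1.52 to 4.71 TPM in WT, and neither line was called. KO2 exceeded KO1 by 0.95 ± 0.24 (adjusted p = 0.029), a call that held in 15 of 21 alternatives.

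Nap1l5 (chr6:58905233-58907126, minus strand), a paternally expressed retrogene of the nucleosome assembly protein family, was lower in KO7 and in treated KO1. It had 2.19 and 2.21 CPM in KO8, 0.666 and 0.704 CPM in KO7, and 3.03 and 2.00 CPM in WT. The change was -0.15 ± 0.34 in KO8 (adjusted p = 0.75) and -1.81 ± 0.42 in KO7 (adjusted p = 0.0018), and KO8 exceeded KO7 by 1.66 ± 0.43 (adjusted p = 0.0065, 0.078 without KO7 replicate 1 and 0.051 without KO8 replicate 2). The 7 genes within 2 Mb had a median of -0.91 in KO7 and -0.18 in KO8, and their part in the fall was not tested. The untreated TPM table had 2.74 and 1.6 TPM in HMCES-KO, against 1.91 and 3.1 TPM in WT (-0.15 ± 0.29, adjusted p = 0.76), with the groups overlapping.

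In treated cells Nap1l5 had 6.92, 9.95, 3.26 and 3.27 TPM in KO2 under BMP4, LDN193189, activin A and SB431542. KO1 had 0.54, 0, 0.313 and 3.11 TPM under the same treatments, and WT 5.46 to 11.1 TPM. Each KO1 library lay below every WT library, and KO2 overlapped WT. The change was -0.57 ± 0.32 in KO2 (adjusted p = 0.21) and -2.46 ± 0.32 in KO1 (adjusted p = 3.4e-05), with KO2 above KO1 by 1.89 ± 0.37 (adjusted p = 0.0056). The 6 genes within 2 Mb had a median of 0.15 in KO2 and -0.42 in KO1.

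Zdbf2 and Plagl1 fell in both treated lines. Zdbf2 (chr1:63200358-63314575, plus strand), a zinc finger gene whose imprint in mice is fixed by transcription in the early embryo, had 308 and 278 CPM in KO8, 340 and 339 CPM in KO7, and 318 and 302 CPM in WT. It was called only in KO7 (0.20 ± 0.06, adjusted p = 0.009). The untreated TPM table gave 142 TPM in both HMCES-KO libraries and 142 and 138 TPM in WT.

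Treated cells held far less Zdbf2 in both knockout lines, with 47.4 to 77.2 TPM in KO2, 68.5 to 82.1 TPM in KO1 and 141 to 192 TPM in WT. No knockout library overlapped WT. The change was -1.31 ± 0.11 in KO2 (adjusted p = 1.1e-06) and -1.08 ± 0.11 in KO1 (adjusted p = 3.2e-06), and every alternative tried kept both calls. Untreated and treated cells were never in 1 table, so the difference between these sets was not tested.

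Plagl1, a zinc finger transcription factor, had 7 and 6.45 CPM in KO8, 7.55 and 7.34 CPM in KO7, and 8.23 and 7.99 CPM in WT, and was called in neither line. The untreated TPM table had 3.23 and 5.42 TPM in HMCES-KO, against 7.18 and 5.55 TPM in WT (-0.49 ± 0.25, adjusted p = 0.23), so both knockout libraries lay below WT without a call. Under treatment it had 4.83 to 5.94 TPM in KO2, 4.38 to 8.14 TPM in KO1 and 8.64 to 16.3 TPM in WT. Each treated knockout library lay below each WT library. The change was -1.04 ± 0.17 in KO2 (adjusted p = 0.00038) and -0.85 ± 0.17 in KO1 (adjusted p = 0.0015). Slc38a4, an amino acid transporter, and Trappc9, a subunit of a vesicle tethering complex, were lower in both treated lines, with Slc38a4 at -0.26 ± 0.07 in KO2 and -0.35 ± 0.07 in KO1 and Trappc9 at -0.49 ± 0.13 and -0.50 ± 0.13.

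**Figure D4:**
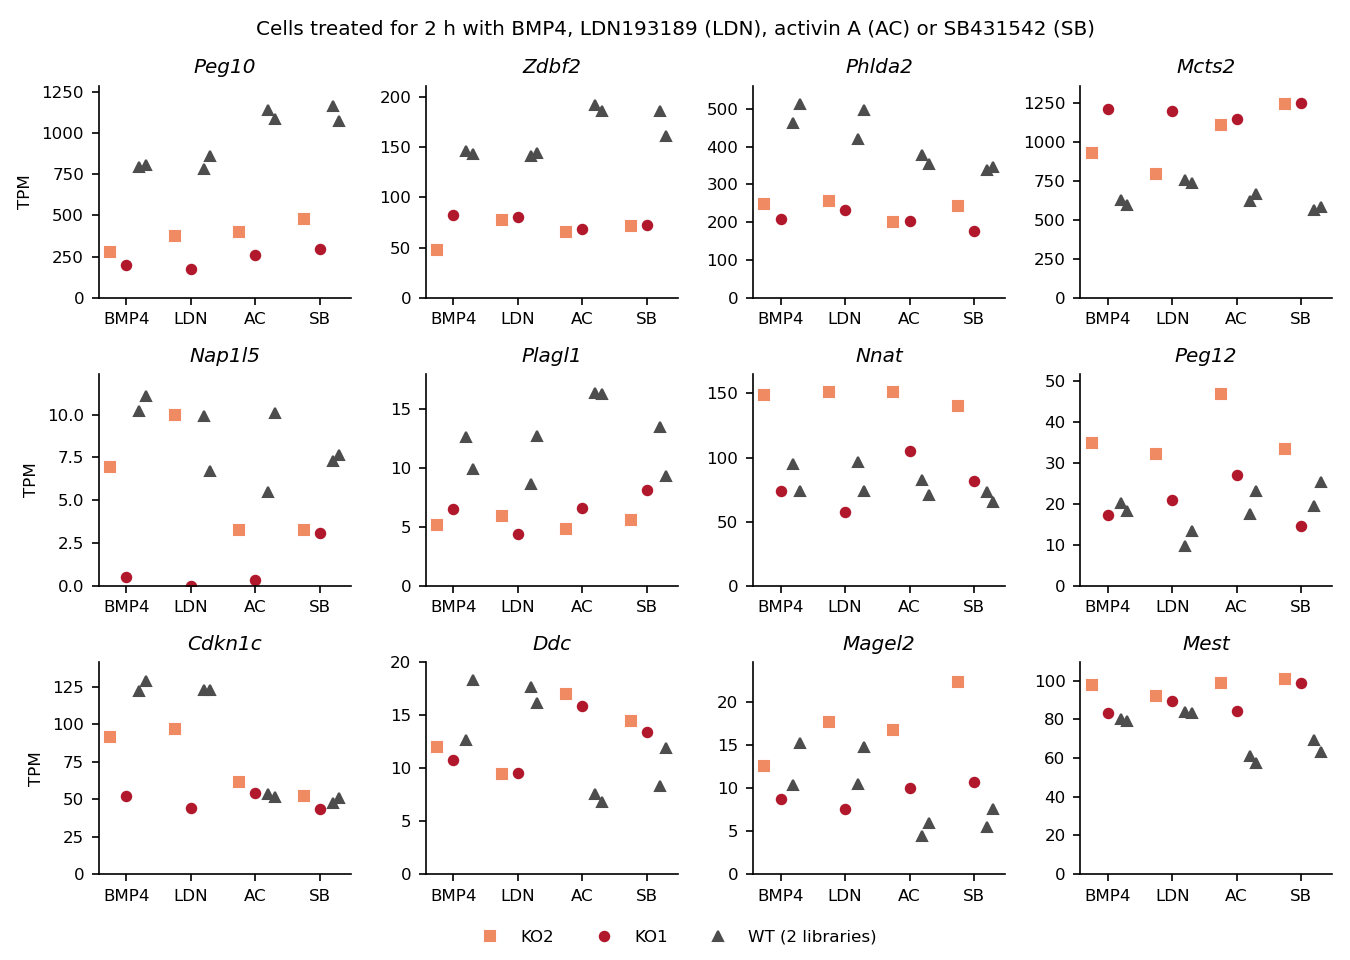
TPM of 12 imprinted genes in KO2, KO1 and WT cells after 2 h with BMP4, LDN193189, activin A or SB431542; each point is 1 library, with 2 WT libraries per table. Peg10, Zdbf2, Phlda2 and Plagl1 are lower and Mcts2 higher in both lines, while Nnat and Peg12 are higher in KO2 only.

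Over the 4 treated tables, 20 of the 39 imprinted genes present in all of them were called in KO2 (10 higher and 10 lower) and 16 in KO1 (4 higher and 12 lower), by limma on log2(TPM + 1). Of all 12608 genes tested, 28.9% were called in KO2 and 32.7% in KO1. Genes higher in both lines were Mest, Mcts2 and Commd1, and those lower in both were the 8 genes Peg10, Ppp1r9a, Phlda2, Ube3a, Zdbf2, Plagl1, Slc38a4 and Trappc9. These lines share the WT libraries too. H19, Kcnq1ot1, Airn, Snrpn, Snurf, Peg13 and Rasgrf1 were in none of the treated tables, Osbpl5 was not listed under SB431542 and Klf14 not under LDN193189. A further 9 genes were called in KO2 alone, 5 in KO1 alone and 14 in neither.

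By limma KO2 differed from KO1 at 8 of the 39 genes, all higher in KO2, where 6.58% of all genes differed (3.89% higher and 2.7% lower). They were Igf2, Peg10, Igf2r, Impact, Peg12, Nnat, Nap1l5 and Sfmbt2, and 7 of the 8 are paternally expressed, as are 19 of the 39 tested. With edgeR on recovered reads 12 of 38 differed, 10 higher and 2 lower in KO2, where 985 of all 11824 genes tested differed. Lower by edgeR were Gnas (-0.28, adjusted p = 0.023) and Commd1 (-0.29, adjusted p = 0.021). The limma count of 8 went to 4 or 5 without the LDN193189 library of either line, the KO1 library under BMP4 or the KO2 library under activin A. Nnat (neuronatin, a small membrane protein of neuroendocrine cells) had 140 to 151 TPM in KO2, 57.8 to 105 TPM in KO1 and 65.6 to 96.7 TPM in WT. It rose in KO2 by 0.91 ± 0.13 (adjusted p = 7.6e-05) and exceeded KO1 by 0.92 ± 0.15 (adjusted p = 0.0011). In untreated cells Nnat rose in KO8 (0.37 ± 0.11, adjusted p = 0.012, 0.12 without WT replicate 1 and 0.11 without KO8 replicate 1) and was not called in KO7 (-0.20 ± 0.11, adjusted p = 0.16).

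The calls were also counted by expressed allele. Of 21 paternally expressed genes tested in counts, 12 rose and 2 fell in KO8 (median log2 fold change 0.37) and 9 rose and 4 fell in KO7 (median 0.20). Of 8 maternally expressed genes tested, 1 rose and 6 fell in KO8 (median -0.51) and 1 rose and 5 fell in KO7 (median -0.76). Over all genes, 19.3% were called higher and 19.7% lower in KO8, and 19% higher and 19.2% lower in KO7. The 11 genes with maternal expression in some tissues only had 1 higher and 3 lower in each line.

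In treated KO2 cells, 9 of 19 paternally expressed genes rose and 4 fell (median 0.41), while 2 rose and 5 fell in KO1 (median -0.14). Among 7 maternally expressed genes, none rose and 1 fell in KO2 (median -0.20), and none rose and 4 fell in KO1 (median -0.71). All genes tested had 12.2% higher and 16.6% lower in KO2, and 12.4% higher and 20.3% lower in KO1. Of 20 paternally expressed genes in the untreated TPM table, 4 rose and none fell, and of 8 maternally expressed genes 2 fell and none rose. The genes of an allele class are not replicates, several share a cluster, and no test was made over them.

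In the untreated TPM table as a whole, 7 of 41 imprinted genes tested were called (17.1%), near the 16% of all genes (5.8% higher and 10.2% lower). Impact, Mest, Igf2, Gnas and Mcts2 were higher and Phlda2 and Grb10 lower. The count was 3 to 4 when either WT library was left out, 2 without a trended prior and 16 with edgeR on the recovered reads, which called 28% of all genes. Gnas, the stimulatory G protein alpha subunit, had 54.7 and 54.3 TPM in HMCES-KO, against 44 and 42.3 TPM in WT (0.33 ± 0.06, adjusted p = 0.022). It went the other way in KO8, with 121 and 114 CPM, against 197 and 201 CPM in KO7 and 206 and 202 CPM in WT (-0.75 ± 0.06 in KO8, adjusted p = 8.9e-09), and it fell in treated KO2 (-0.42 ± 0.08, adjusted p = 0.00061).

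**Figure D5:**
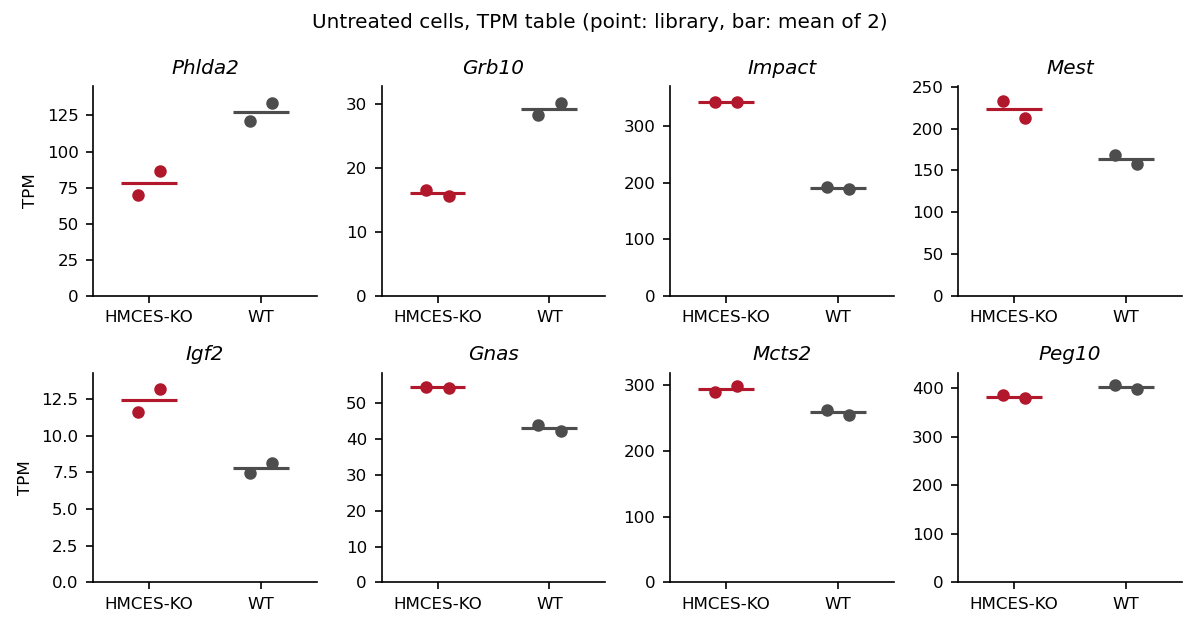
TPM of the 7 imprinted genes called in the untreated TPM table, with Peg10 (not called), in HMCES-KO and WT libraries; points are libraries and bars the mean of 2. Impact stands at 343 TPM in both HMCES-KO libraries and at 192 and 190 TPM in WT.

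At the remaining loci, Commd1 rose in both treated lines and fell in untreated KO8. Commd1, a regulator of copper handling that hosts the retrogene Zrsr1, had 57.6 to 78.5 TPM in treated KO2, 68.8 to 91.8 TPM in KO1 and 45.9 to 59.3 TPM in WT, with both lines above WT within each table. It rose in treated KO2 (0.29 ± 0.07, adjusted p = 0.0048) and KO1 (0.56 ± 0.07, adjusted p = 1.8e-05) and fell in untreated KO8 (-0.27 ± 0.07, adjusted p = 0.0044, and 0.055 without KO8 replicate 1). It was not called in KO7 (-0.03 ± 0.07) or by limma in the untreated TPM table (0.19 ± 0.06, adjusted p = 0.096), where edgeR on recovered reads called it higher (0.24, adjusted p = 0.0066). Commd1 shares 20.9% of its exon bases with Zrsr1 on the opposite strand, where reads cannot be told apart.

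Peg13, a noncoding RNA that lies within Trappc9, had 8.15 and 7.12 CPM in KO8, 6.96 and 8.85 CPM in KO7, and 4.12 and 5.59 CPM in WT. Every knockout library exceeded both WT libraries, but the rises of 0.71 ± 0.22 in KO8 and 0.77 ± 0.22 in KO7 were lost without WT replicate 1 (adjusted p = 0.13 and 0.085). The KO8 call was also lost without KO8 replicate 1 (adjusted p = 0.12) and with DESeq2 (adjusted p = 0.071), and the KO7 call without KO7 replicate 2 (adjusted p = 0.11). Inpp5f, a phosphoinositide phosphatase, fell in KO7 (-0.28 ± 0.09, adjusted p = 0.019, 0.095 with DESeq2 and 0.21 without KO7 replicate 2). Blcap, which hosts Nnat in an intron, was called against WT in treated KO2 alone (-0.32 ± 0.12, adjusted p = 0.05 after rounding), a call that held in 3 of 21 alternatives. Rasgrf1 had no read in any untreated count library.

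Within single treatments, where KO2 and KO1 form 1 HMCES-KO group of 2 libraries, fewer genes were called. Under BMP4, 1 of 39 was higher and 3 lower (2.13% and 4.2% of all genes, 6.33% in all), and under LDN193189 none was higher and 3 were lower (0.793% and 1.5%, 2.29% in all). Under activin A, 3 were higher and 6 lower (5.1% and 7.03% of all genes, 12.1% in all), and under SB431542 3 were higher and 3 lower (5.41% and 6.73%, 12.1% in all). Peg10 (-1.79 to -1.56), Phlda2 (-1.09 to -0.71) and Zdbf2 (-1.49 to -0.84) were lower under all 4 treatments, though under LDN193189 none of these calls held in every alternative. Mcts2 was higher under BMP4, activin A and SB431542 (0.79 to 1.12), and Mest under activin A and SB431542. Ddc was higher under activin A, a call that held in 21 of 22 alternatives. Leaving out 1 library moved these counts to 2 under BMP4 (without WT replicate 2), to 0 to 7 under LDN193189 (any of its 4 libraries), to 5 under activin A (without WT replicate 2) and to 3 under SB431542 (without the KO1 library or WT replicate 2).

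Ligand against inhibitor called no imprinted gene at the threshold. The treated tables held no untreated cells, so the effect of a ligand alone was not measured. BMP4 against LDN193189 called 0 of 39 (0.0238% of all genes, 3 genes), with 2 at an unadjusted p under 0.05 (Slc22a18 and Zim1), and edgeR on recovered reads also called 0. Activin A against SB431542 likewise called 0 (0.0793% of all genes, 10 genes) with 1 at an unadjusted p under 0.05 (Zim1), and edgeR on recovered reads called 0. In these contrasts treatment and table are the same split.

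A few knockout effects differed between the pair of BMP4 and LDN193189 tables and the pair of activin A and SB431542 tables, in a model chosen after seeing the data. Cdkn1c had 91.6 and 96.5 TPM in KO2, 52.4 and 44 TPM in KO1 and 122 to 129 TPM in WT in the BMP4 and LDN193189 tables. In the activin A and SB431542 tables it had 61.7 and 52.2 TPM in KO2, 53.9 and 43.2 TPM in KO1 and 47.7 to 53.3 TPM in WT. KO1 thus had like values in both pairs of tables, which were normalised separately, and WT did not. The KO1 effect was -1.35 ± 0.09 in the first pair and -0.07 ± 0.09 in the second, a difference of -1.28 ± 0.13 (adjusted p = 0.00023), and the KO2 effects of -0.40 ± 0.09 and 0.16 ± 0.09 differed by -0.56 ± 0.13 (adjusted p = 0.044).

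Ddc, which makes dopamine and serotonin, had 12 and 9.47 TPM in KO2, 10.8 and 9.59 TPM in KO1 and 12.7 to 18.3 TPM in WT in the BMP4 and LDN193189 tables. In the activin A and SB431542 tables it had 17 and 14.5 TPM in KO2, 15.9 and 13.4 TPM in KO1 and 6.77 to 11.9 TPM in WT. Knockouts and WT thus changed places between the pairs, with a difference in effect of -1.37 ± 0.31 in KO2 (adjusted p = 0.037) and -1.33 ± 0.31 in KO1 (adjusted p = 0.038). Magel2 did the same in KO1, and its effect differed by -1.35 ± 0.31 in KO2 (adjusted p = 0.044) and -1.32 ± 0.31 in KO1 (adjusted p = 0.042). In all, 4 of 39 imprinted genes had a different effect in KO2 (0 higher and 4 lower in the BMP4 and LDN193189 tables) and 4 in KO1 (1 higher and 3 lower), with 1.64% of all genes called in KO2 (0.825% higher and 0.817% lower) and 2.13% in KO1 (0.976% higher and 1.15% lower). The pair of tables and the pathway treated cannot be told apart.

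Genes that keep and erase imprints moved modestly. Of 23 such genes, all tested in counts, 10 were higher and 3 lower in KO8, and 15 were higher and 3 lower in KO7. Of all genes, 19.3% were higher and 19.7% lower in KO8, and 19% higher and 19.2% lower in KO7. Setdb1, the histone methyltransferase recruited by TRIM28, rose by 0.46 ± 0.05 in KO8 and 0.49 ± 0.05 in KO7. Ctcf, the insulator protein that binds the H19-Igf2 control region, rose by 0.31 ± 0.06 in KO8 and 0.53 ± 0.05 in KO7, and Tet3, which oxidises methylcytosine, fell by 0.56 ± 0.12 in KO8 and by 0.63 ± 0.11 in KO7. Of 22 tested in the untreated TPM table, none was higher and 9 were lower, and in treated cells 7 were higher and 5 lower in KO2, and 6 higher and 5 lower in KO1 (22 tested). The shares of all genes were 5.8% higher and 10.2% lower in the untreated TPM table, 12.2% and 16.6% in KO2, and 12.4% and 20.3% in KO1. The list had no common direction over the tables.

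Across KO8, KO7, untreated HMCES-KO, KO2 and KO1, Mest and Mcts2 were called higher and Phlda2 lower in all 5 comparisons. Impact was called higher in 4, and Peg10 and Ppp1r9a lower in 4. Ube3a, Copg2, Gnas, Zdbf2, Sfmbt2 and Commd1 were called in both directions in different comparisons. Zim1, Cd81, Tssc4, Nap1l4, Ddc and Zrsr1 were called in none of the 5, although edgeR on recovered reads called Cd81 higher in the untreated TPM table (0.19, adjusted p = 0.005). For Ddc the KO2 and KO1 comparisons average over table pairs between which its effect differed (-1.37 in KO2 and -1.33 in KO1). Ddc was called higher in HMCES-KO under activin A. Kcnq1ot1 was tested by the main tests in KO8 and KO7 alone and called in neither, and edgeR on recovered reads called it lower in the untreated TPM table (-0.76, adjusted p = 0.0019), at 0.241 and 0.27 TPM in HMCES-KO, against 0.459 and 0.436 TPM in WT.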

How the data were processed

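RNA-seq was measured in 26 libraries. Per the submitters' processing notes, reads were handled with FastQC 0.11.5, Bowtie2 2.3.3, SAMtools 1.9 and featureCounts 2.0.1 on mm10, and DESeq2 is named there. The authors deposited raw counts per gene for 6 untreated libraries and TPM (read counts per gene length, scaled to 1000000 per library) for 4 untreated and 16 treated libraries. No strand setting of the counting is named, and RNA totals cannot separate alleles.

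Counts were tested with edgeR 4.0.16 (R 4.3.3; TMM, filterByExpr, quasi-likelihood test), each line on its own. For the TPM tables, limma 3.58.1 (variance trend on) was run on log2(TPM + 1) for genes that reached 1 TPM in 2 or more libraries; fold changes of low genes are understated on that scale. The treated fit used the 12928 genes in all 4 tables, rescaled to 1000000 per library, with treatment and line as terms (8 WT, 4 KO2 and 4 KO1 libraries), and a fit of 8 genotype and treatment groups. CPM and TPM computed from the counts serve for levels only. The p-values were adjusted by Benjamini-Hochberg over all genes tested. All TPM values above 0 came out as whole reads (100% within 0.01 reads), so that edgeR on those reads was an alternative.

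The imprinted genes and all gene lists were chosen with earlier results of these data known. Given library by library are genes called with a log2 fold change of at least 1 in size, H19 and Igf2, and genes called in opposite directions in KO7 and KO8; Mest, Nnat, Gnas and the others with library values were chosen after their values were seen. Alternatives were DESeq2 1.42.0, other scalings, filters and pseudocounts, a replicate block, both lines as 1 group and each library left out. The scripts were tested on simulated data.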

Additional observations from a re-analysis of the deposited data

Results flagged for a closer look

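The 2 untreated lines differed from each other beyond the replicate spread at 22 imprinted genes (KO8 minus KO7, log2, adjusted p under 0.05 in edgeR). Higher in KO8 were Sfmbt2 by 2.25, Nap1l5 by 1.66, Igf2 by 1.25, Peg10 by 0.80, Grb10 by 0.73, Peg12 by 0.72, Impact by 0.58, Nnat by 0.57, Peg3 by 0.53 and Inpp5f by 0.26. Lower in KO8 were Gnas (-0.78), Cdkn1c (-0.76), Phlda2 (-0.68), Mkrn3 (-0.42), Ppp1r9a (-0.41), Mcts2 (-0.40), Mest (-0.38), Blcap (-0.26), Commd1 (-0.24), Zdbf2 (-0.23), Copg2 (-0.21) and Ube3a (-0.20).

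The treated lines differed at 8 genes (KO2 minus KO1, limma), namely Nap1l5 by 1.89, Igf2 by 1.21, Sfmbt2 by 0.95, Nnat by 0.92, Peg12 by 0.87, Peg10 by 0.72, Igf2r by 0.56 and Impact by 0.48. Igf2, Peg10, Peg12, Nnat, Nap1l5, Impact and Sfmbt2 are on both lists, each higher in KO8 and in KO2. Which untreated line is which treated line is not known, so this is given as values alone.

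Knockout effects that differed between the BMP4 and LDN193189 tables and the activin A and SB431542 tables, in limma, were those of Cdkn1c (-0.56), Ddc (-1.37), Magel2 (-1.35) and Mcts2 (-0.60) in KO2, and of Cdkn1c (-1.28), Cd81 (0.68), Ddc (-1.33) and Magel2 (-1.32) in KO1. Pathway and table pair cannot be told apart.

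Among the 4 knockout libraries of the count table, Nap1l4 had 1 library at 197 CPM (KO8) and the others at 202 to 203 CPM, a gap large for its group's range. Chance flags about 1 in 20 such groups.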

How the results depend on the processing

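Of the calls for single genes, 13 of 24 in KO7, 18 of 26 in KO8, 11 of 22 between KO8 and KO7, 2 of 7 in the untreated TPM table (Grb10 and Impact), 15 of 20 in KO2, 11 of 16 in KO1 and 3 of 8 between KO2 and KO1 held under every alternative run other than both lines as 1 group. That alternative, with KO7 and KO8 as 1 group of 4, counts the spread between the lines as error. It called 9 imprinted genes and 1552 of all 13475 genes tested. Sfmbt2, called lower in KO7, turned to 1.35 there (edgeR adjusted p = 0.25). In the untreated TPM table the count of 7 went to 16 with edgeR on recovered reads, chosen for the treated tables after seeing the data, and to 2 with limma without a trended prior. The LDN193189 count of 3 went to 1 without that trend. Over all genes, limma without that trend called 339 in the untreated TPM table, against 2128 with it. Under LDN193189 it called 86 of all genes, against 289 with it. DESeq2 called 17 imprinted genes in KO7, 22 in KO8 and 17 between them. Of all 13475 genes it called 3441, 3483 and 2408, against 5149, 5248 and 3797 in the main fit. Calls over all genes also moved when 1 library was left out. The cause of these changes was not tested.

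Leaving out 1 library gave 14 to 28 calls in KO7, 20 to 27 in KO8, 13 to 28 between KO8 and KO7, 3 to 8 in the untreated TPM table, 15 to 21 in KO2, 14 to 17 in KO1 and 4 to 9 between KO2 and KO1. Within treatments it gave 2 to 5 under BMP4, 0 to 7 under LDN193189, 5 to 13 under activin A and 3 to 8 under SB431542, and 0 for each ligand against its inhibitor.

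The replicate numbers do not pair the samples: deviations of same-numbered libraries correlated at -0.03 to 0.01. With a replicate block the count was 23 in KO7, 26 in KO8, 24 between KO8 and KO7 and 8 in the untreated TPM table. In treated cells the block ties WT replicate 2 to the line KO2, so it does not adjust for replicates alone. It gave 6 under BMP4, 4 under LDN193189, 11 under activin A and 7 under SB431542. Other scalings moved the median of all genes by at most 0.06 (log2). Few reads limit Slc22a18, Osbpl5, Ascl2, Usp29, Magel2 and Nap1l5, and H19 in the untreated TPM table. The filter on low counts removed 5 genes.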
